A study of Mus musculus with 6 samples.

Results

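The genes described here are 9 transcription factors that drive or sustain the formation of fat cells: Pparg, Cebpa, Cebpb, Cebpd, Rxra, Nr1h3, Srebf1, Ebf1 and Mlxipl. They were chosen by name, as the genes whose symbol the array's annotation gives to at least 1 probe, and they are 9 of 19057 named genes on the array. All 9 were found, on 17 probes. RNA of subcutaneous adipose tissue was measured on 6 Illumina bead arrays, 3 from wild type and 3 from mitoNEET-transgenic male FVB mice, all aged 12 weeks and sampled at 3 pm in the light phase without any other treatment stated. The Cisd1 gene encodes mitoNEET, which sits in the outer membrane of mitochondria and carries an iron-sulfur cluster. The sample codes of all 6 arrays, wild type included, carry aP2, an older name of Fabp4, whose promoter is often used to drive transgenes in fat cells and is also active in macrophages. The labels do not state the transgene's promoter or the number of founder lines, nor whether the arrays are from different animals, so the spread behind each p-value may be technical. The design compares the genotypes, and the question taken up here is whether the regulators of fat cell formation differed between them. Of the 6 arrays, wild type array 2 stood apart in skeletal muscle markers, which summed to an intensity of 30737 there and to 3253 to 5321 on the other 5, and transgenic array 1 had the lowest sums of lymphocyte markers.

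In cultured mouse preadipocytes, C/EBPβ and C/EBPδ are induced early and are known to switch on the genes of PPARγ and C/EBPα, which then maintain each other and the genes of the mature fat cell. PPARγ is a nuclear receptor that binds DNA as a partner of RXRα. LXRα (Nr1h3), SREBP-1 (Srebf1) and ChREBP (Mlxipl) control genes of cholesterol handling and fatty acid synthesis, and EBF1 acts beside PPARγ and the C/EBPs on fat cell genes.

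Of the 9 genes, 4 were higher in transgenic tissue at an adjusted p under 0.05: Pparg, Cebpa, Rxra and Ebf1. The test was limma's moderated test on log2 intensity over 14962 features, each a named gene (1 probe a gene) or an unnamed probe, with Benjamini-Hochberg adjustment over all of them. In the same test 5.11% of all features were higher and 8.26% were lower, 13.4% in all, and 0 of the 9 genes were lower. At an unadjusted p under 0.05 in limma there were 5 of the 9 genes, the fifth being Srebf1, and 4708 of all 14962 features. The median log2 difference, transgenic minus wild type, was 0.33 over the 9 genes and 0.026 over all features. A positive difference was found in 8 of the 9 genes and in 8230 of the 14962 features. Centring each array on markers of mature fat cells lowers every difference by the same 0.29, and 5 of the 9 genes were positive on that scale. Because the tissue was measured in bulk, fewer cells of a type and less RNA per cell cannot be told apart in any of these values.

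The promoter sequences of the genes at the ends of this range are shown because Pparg had the largest difference, Cebpa followed it most closely among the other 8 genes, and Mlxipl was the gene with a negative difference. They are from RefSeq (GRCm38.p6), each the 250 bases before an annotated start, written on the strand of the gene. A start was listed for 8 of the 9 genes, with 16 starts in all. Capitals mark matches, on either strand, to any of 7 short motifs: a C/EBP motif TTGCNNAA, an EBF motif CCCNNGGG, the nuclear receptor hexamer AGGTCA, an E box CACGTG, a sterol element TCACNCCAC, a TATA box TATAAA and a GC box GGGCGG. Matches may overlap. The most downstream of the 3 Pparg starts, which begins the fat-cell isoform PPARγ2, lies after chr6:115421816-115422065 on the plus strand, the Cebpa start after chr7:35119043-35119292 on the plus strand, and the first of the 2 Mlxipl starts after chr5:135089640-135089889 on the plus strand.
Pparg, downstream start: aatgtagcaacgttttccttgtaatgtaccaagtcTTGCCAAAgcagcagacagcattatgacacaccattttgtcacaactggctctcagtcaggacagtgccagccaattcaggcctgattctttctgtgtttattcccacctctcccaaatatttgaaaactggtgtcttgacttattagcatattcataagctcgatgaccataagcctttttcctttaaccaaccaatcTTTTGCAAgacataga
Cebpa: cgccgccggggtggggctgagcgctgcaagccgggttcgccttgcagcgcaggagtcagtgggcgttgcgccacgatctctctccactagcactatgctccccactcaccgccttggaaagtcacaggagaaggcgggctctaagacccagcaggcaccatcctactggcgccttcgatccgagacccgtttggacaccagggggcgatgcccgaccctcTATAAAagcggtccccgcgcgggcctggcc
Mlxipl, first start: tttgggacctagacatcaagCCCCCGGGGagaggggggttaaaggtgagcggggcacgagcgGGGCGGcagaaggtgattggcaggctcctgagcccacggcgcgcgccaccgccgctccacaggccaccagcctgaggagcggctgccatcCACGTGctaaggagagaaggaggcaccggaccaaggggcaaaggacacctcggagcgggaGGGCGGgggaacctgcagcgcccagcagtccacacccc
In the Pparg sequence the capitals are 2 C/EBP matches, which begin 215 and 16 bases before the start. It was the single one of the 16 starts with that motif, which 9.56% of 32851 mouse promoters of the same length hold. The Cebpa sequence has a TATA box 30 bases before the start, a motif found in 12.4% of all promoters. The Mlxipl sequence has 2 overlapping EBF matches, an E box 98 bases before the start and GC boxes 188 and 38 bases before it; these motifs occur in 11.8%, 6.02% and 32.7% of all promoters. GC content was 40.8% for the Pparg sequence, 66.4% for Cebpa and 69.2% for Mlxipl, beside a median of 52.4% over all promoters. Over the 16 starts, the EBF motif was present in 3, the hexamer in 3 (14% of all promoters), the E box in 1, the sterol element in 1 (1.05% of all promoters), the TATA box in 2 and the GC box in 7. The 2 other Pparg starts, not shown, hold the hexamer and GC boxes, and 1 of them a TATA box. The second Mlxipl start, not shown, holds the sterol element. Which of these starts is used in this tissue was not tested. A match of letters describes these windows and is not a measured binding site.

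Pparg, the receptor without which fat cells do not form, showed the largest difference of the 9. The intensity of its brightest probe (ILMN_1221060, Entrez Gene 19016) was 3849, 3284 and 4288 on the wild type arrays and 5716, 5806 and 6112 on the transgenic arrays. Every transgenic array lay above every wild type array, and the wild type arrays were the more spread. The means were 3807 ± 503 and 5878 ± 207 (SD, n = 3 in each group), a 1.55-fold difference (log2 0.63, SE 0.11, 95% interval 0.39 to 0.88, limma adjusted p = 0.0162). Pparg has 2 further probes, and both were called higher as well. One read 309.5 ± 55.8 in wild type and 552 ± 89.4 in transgenic tissue (log2 0.84, adjusted p = 0.0161 in limma's fit of all probes). The other read 166 ± 36.6 and 310.2 ± 28.1 (log2 0.92, adjusted p = 0.0138 in the same fit). The 3 Pparg probes were thus each higher on all 3 transgenic arrays. The sequences of the probes were not used here, so the Pparg isoforms cannot be told apart.

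Rxra encodes the receptor that pairs with PPARγ and with LXRα on DNA. Its probe read 196, 164 and 198 on the wild type arrays and 270.3, 223 and 253 on the transgenic arrays. The groups did not overlap, and the lowest transgenic value was on array 2. The means were 186 ± 19.2 and 249 ± 24.0 (SD, n = 3), a 1.34-fold difference (log2 0.42, SE 0.11, 95% interval 0.16 to 0.67, limma adjusted p = 0.0436). A background level of 47.8 remains in all intensities, so the fold of a dim gene such as Rxra is understated.

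Of the 3 C/EBP genes among the 9, Cebpa passed the test and Cebpb and Cebpd did not. Cebpa keeps the differentiated state of fat cells together with PPARγ, and its probe read 1267, 1155 and 1522 in wild type and 1772, 1823 and 1771 in transgenic tissue. The transgenic arrays were nearly equal and all above the wild type arrays. The means were 1315 ± 188 and 1789 ± 29.8 (SD, n = 3), a 1.37-fold difference (log2 0.45, SE 0.11, 95% interval 0.20 to 0.71, limma adjusted p = 0.0343). Cebpb, an early inducer of both Pparg and Cebpa, read 4106, 3827 and 3813 against 4394, 4327 and 4304. Its groups did not overlap either, but the log2 difference was 0.15 (SE 0.08, 95% interval −0.03 to 0.33, limma adjusted p = 0.235). Cebpd, the other early inducer, read 217, 230.4 and 218 in wild type and 226, 224 and 248 in transgenic tissue. These groups overlapped, and the log2 difference was 0.07 (SE 0.08, 95% interval −0.12 to 0.26, limma adjusted p = 0.625). A second Cebpd probe stayed at background, with values of 42.4 to 47.3 on the 6 arrays. Whether Cebpa differed from its relatives in the size of its difference was not tested.

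**Figure D1:**
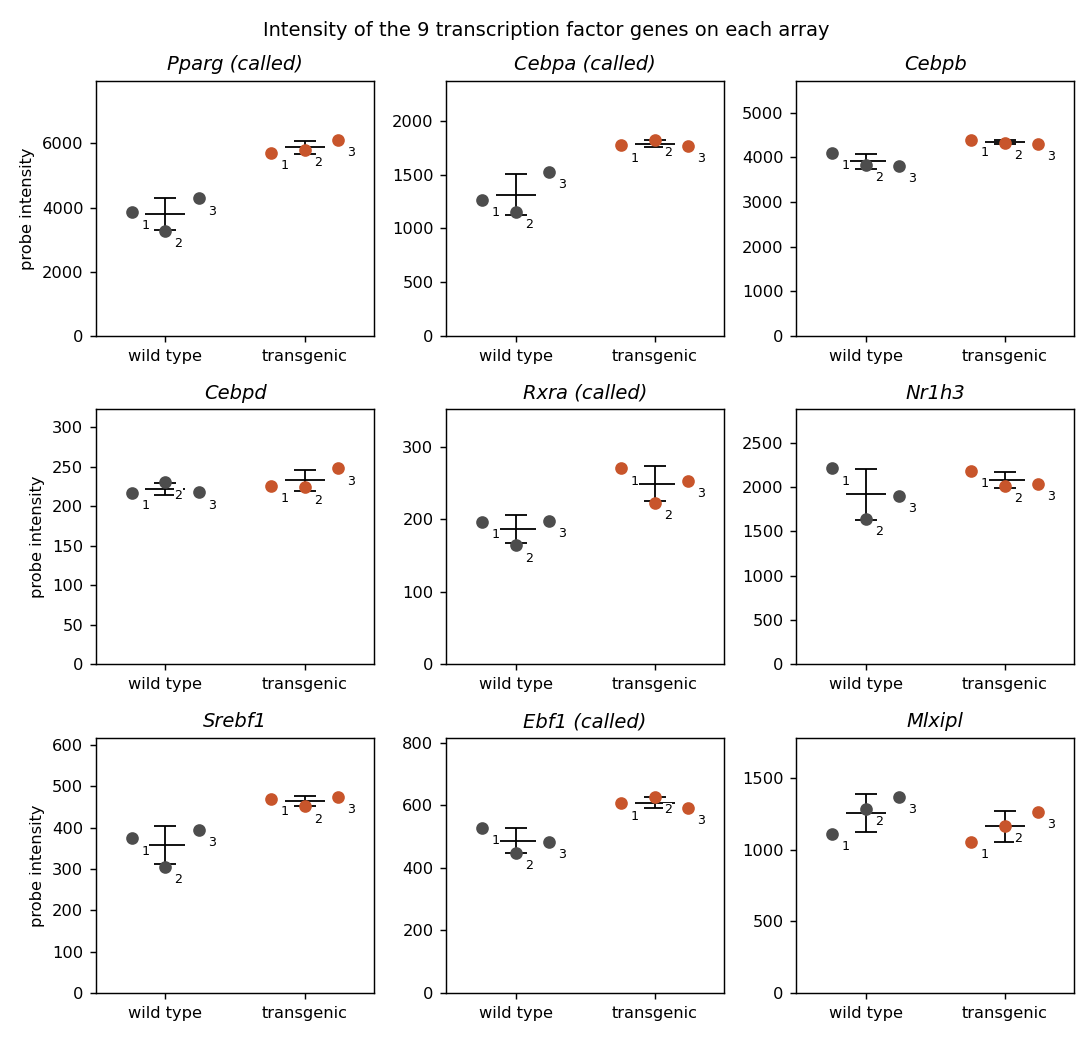
Probe intensity of the 9 genes on each array, in linear units from 0, for the 3 wild type (grey) and 3 transgenic (orange) arrays. Small digits are array numbers, bars are the mean ± SD over 3 arrays, and "called" marks an adjusted p under 0.05. In Pparg, Cebpa, Cebpb, Rxra, Srebf1 and Ebf1 the transgenic points all lie above the wild type points.

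The 3 regulators of lipid synthesis, Srebf1, Nr1h3 and Mlxipl, did not pass the test. Srebf1, which encodes the factor for fatty acid synthesis genes, read 374, 305 and 394 in wild type and 469, 452 and 475 in transgenic tissue. All transgenic values were above all wild type values and close to each other. The means were 358 ± 46.7 and 465 ± 12.0 (SD, n = 3), a log2 difference of 0.39 (SE 0.11, 95% interval 0.14 to 0.63), and limma's adjusted p of 0.0501 lay just outside the threshold. Ebf1, at 0.0477, was the member just inside it. When all 22037 kept probes were tested separately, the same Srebf1 probe had an adjusted p of 0.0480. A second Srebf1 probe was at background, with values of 39.7 to 54.4. Nr1h3, the oxysterol receptor LXRα, read 2212, 1641 and 1903 against 2180.1, 2018 and 2037. Its groups overlapped because the highest value was that of wild type array 1, and the log2 difference was 0.13 (SE 0.12, 95% interval −0.14 to 0.39, limma adjusted p = 0.506). Its second probe read 178 ± 19.7 and 223 ± 13.0 without overlap (log2 0.33, limma adjusted p = 0.0713).

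Mlxipl, which encodes the glucose-responsive factor ChREBP, read 1113, 1286 and 1371 in wild type and 1055, 1169 and 1267 in transgenic tissue. The groups overlapped, and the log2 difference was −0.11 (SE 0.11, 95% interval −0.36 to 0.14, limma adjusted p = 0.545). Its second probe read 539, 536 and 536 against 444, 433 and 473. There the transgenic arrays were all lower, by a log2 difference of −0.26, with a limma adjusted p of 0.0686. ChREBP has an isoform that starts from its own promoter in fat, and which isoforms the 2 probes read was not tested.

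Ebf1, which encodes a factor that acts early in the fat and B cell lineages, read 528, 448 and 483 in wild type and 606, 627 and 592 in transgenic tissue. The groups did not overlap. The means were 486 ± 40.3 and 609 ± 17.6 (SD, n = 3), a 1.25-fold difference (log2 0.33, SE 0.09, 95% interval 0.12 to 0.53, limma adjusted p = 0.0477). The 2 other Ebf1 probes did not pass the test. Of these, ILMN_2707452 read 186 ± 22.7 and 202 ± 7.98 (log2 0.13, limma adjusted p = 0.467), and ILMN_2573212, near background, read 72.2 ± 6.55 and 74.6 ± 9.30 (log2 0.04, limma adjusted p = 0.836). With the mean of the 3 probes in place of the brightest, the Ebf1 log2 difference was 0.17 with a limma adjusted p of 0.264, so its call rests on the brightest probe. Ebf1 is also a defining factor of B cells, whose 8 measured markers were all called lower in transgenic tissue, opposite in direction to Ebf1.

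Over all 17 probes of the 9 genes, 15 exceeded background on at least 3 arrays. In the fit of all kept probes, 7 of these 15 were higher in transgenic tissue and 0 lower, where 5.71% of all 22037 probes were higher and 7.36% lower. The groups did not overlap in 9 probes with higher and 1 probe with lower transgenic values, and the 3 Pparg probes are among the 9. The share of all 22037 probes without overlap was not counted. Over the 14962 features it was 18.5% with higher and 17.4% with lower transgenic values. At the level of genes, 6 of the 9 had all transgenic values above all wild type values, and in 18.5% of all features the groups separated in that direction. An exact permutation test, two-sided, returned p = 0.1 for each of those 6 genes, which is as low as a comparison of 3 with 3 arrays can go. It gave 0.3 for Cebpd, 0.4 for Mlxipl and 0.5 for Nr1h3.

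**Figure D2:**
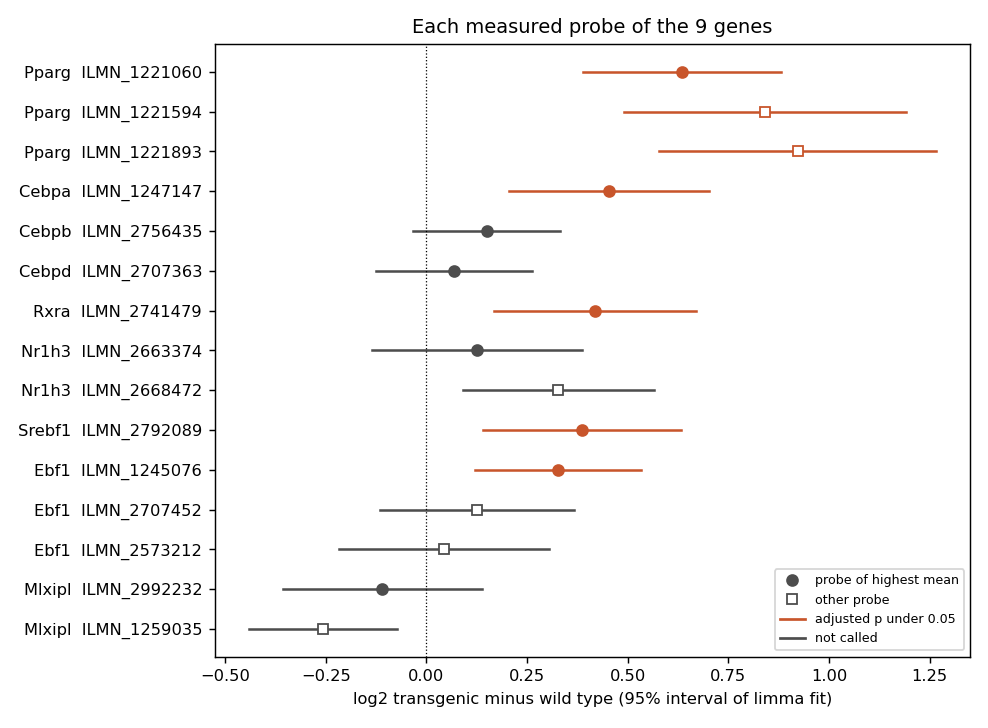
Log2 difference, transgenic minus wild type, of the 15 measured probes of the 9 genes, with the 95% interval of limma's fit of all probes. Filled circles are the probe of highest mean of a gene, open squares its other probes, and orange marks an adjusted p under 0.05 in that fit, which includes Srebf1. All 3 Pparg probes lie between 0.63 and 0.92, while the 3 Ebf1 probes range from 0.04 to 0.33.

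The calls rested on individual arrays. Pparg stayed past the threshold in 5 of 6 fits that left out a single array, with log2 differences of 0.53 to 0.72, and lost its call without transgenic array 2 (limma adjusted p = 0.0583). Cebpa, with differences of 0.36 to 0.56, and Rxra, with 0.33 to 0.50, each kept the call in 1 of the 6 fits, the one without wild type array 3. Ebf1, with 0.27 to 0.39, kept it in 1, the one without wild type array 1. Srebf1 gained a call without wild type array 3 (limma adjusted p = 0.0366). The number of the 9 genes called was 4 without wild type array 3, 2 without wild type array 1, 1 without wild type array 2, transgenic array 1 or transgenic array 3, and 0 without transgenic array 2. The share of all features called higher was 5.11% with all 6 arrays. It fell to 0.287% without wild type array 2, 0.608% without transgenic array 1 and 2.23% without transgenic array 3. Without wild type array 1 it was 4.5%, and without wild type array 3 it was 6.66%. Without transgenic array 2, 0 of all 14962 features passed, and 3627 had an unadjusted p under 0.05 in limma. Wild type array 2 gave the lowest value of the 6 arrays in 6 of the 9 genes. In 8 of the 9 genes the wild type arrays had the larger SD of log2 intensity, as did 58.4% of all features.

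Markers of other cells moved with the genotype. Beside the marker counts given here, 5.11% of all features were called higher and 8.26% lower with no covariate or centring. In 18.5% of all features every transgenic value lay above every wild type value. All 14 measured markers of mature fat cells had a positive difference and 5 of 14 were called higher, with a median log2 difference of 0.28. Their summed intensity was 118378 to 129150 on the wild type and 136807 to 142172 on the transgenic arrays. Each of these markers is also on the list of PPARγ targets used below, so the 2 lists do not give separate observations. Among these markers, Pnpla2 read the top value of the arrays, 25166.1, on wild type array 1 and on all 3 transgenic arrays. Its part in the sum and in the centring is therefore not well measured. When each array was centred on the mature fat cell markers, the median log2 difference of all features moved from 0.026 to −0.27. On that scale 1 of the 9 genes remained called, Pparg, with a log2 difference of 0.34 (limma adjusted p = 0.0441). Cebpa was then at 0.16, Rxra at 0.13, Srebf1 at 0.09 and Ebf1 at 0.03, and the differences of Cebpb, Cebpd and Nr1h3 turned to −0.14, −0.22 and −0.17, none of them called. All 11 measured T and NK cell markers were lower, with summed intensities of 7412 to 13463 in wild type and 1287 to 4136 in transgenic tissue, and all 8 measured B cell markers, with 3822 to 6373 and 745 to 1660.1. Not in these counts are Cd5 and Cd8a of the T cell list and Cr2, Pax5 and Jchain of the B cell list, which did not pass the background filter. With the lymphocyte marker score as a covariate, 0 of the 9 genes and 0 of all features were called (757 features had an unadjusted p under 0.05 in limma), and the log2 differences were 0.56 for Pparg, 0.37 for Cebpa, 0.21 for Ebf1, 0.20 for Srebf1 and 0.08 for Rxra, which was 0.42 without the covariate. That fit had an SE of 0.24 for Pparg and 0.21 for Rxra, against 0.11 for each without the covariate. The scores of both lymphocyte lists were higher on every wild type array than on any transgenic array. The fit can therefore hardly separate the score from the genotype. Endothelial markers summed to 9205 to 15263 in wild type and 15364 to 15625 in transgenic tissue, with 2 of 12 called higher. All 12 had a positive difference, with a median log2 difference of 0.41 and 5 without overlap. Of the 10 measured macrophage markers 0 were called, but 9 of 10 had a positive difference, with a median log2 difference of 0.25 and 3 without overlap. Their sums, in which the brightest probe is that of the 1 gene with a negative difference, Lyz2 (5383 and 3778 on average, named after its values were seen), were 8221 to 9482 and 7408 to 8856. Of 10 measured progenitor markers 0 were higher and 2 lower, with sums of 8888 to 16088 and 8813 to 12852. Without wild type array 2 and transgenic array 1 together, 0 of the 9 genes were called, and the Pparg log2 difference was 0.55 (limma adjusted p = 0.0656). The part of any cell type in the differences was not tested beyond these values.

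**Figure D3:**
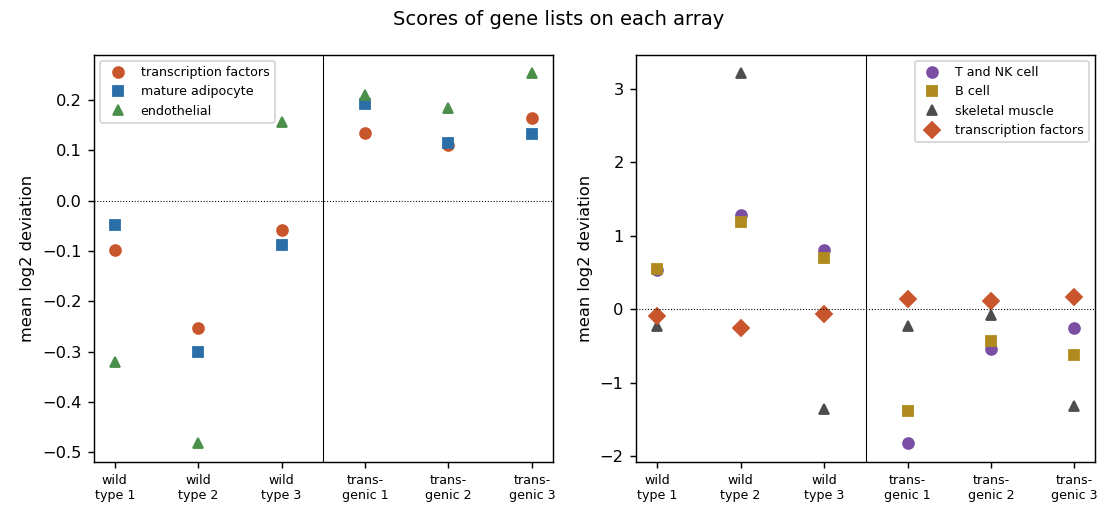
Score of each gene list on each array, the mean log2 deviation of its genes from their 6-array means; the left panel shows the 9 transcription factors, mature fat cell and endothelial markers, the right panel lymphocyte and muscle markers with the 9 genes repeated. The 9 genes score from −0.25 to −0.06 on the wild type and from 0.11 to 0.16 on the transgenic arrays, and the T and NK cell score runs from 0.53 to 1.28 and from −1.82 to −0.25.

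**Figure D4:**
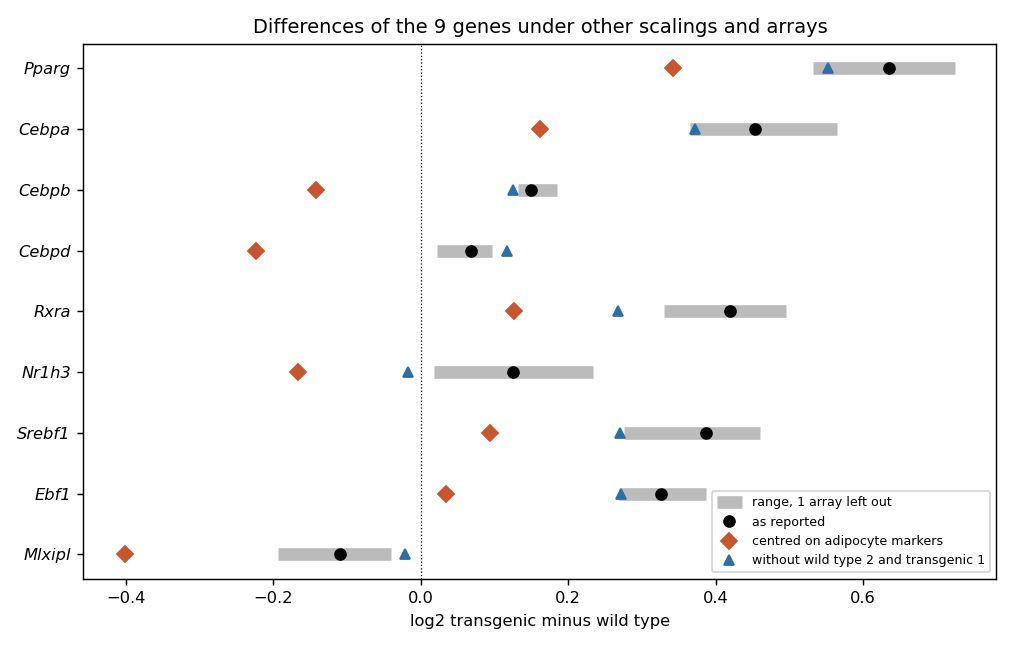
Log2 difference of the 9 genes as reported (black), with each array centred on mature fat cell markers (orange diamonds), without wild type array 2 and transgenic array 1 (blue triangles), and over the fits that leave out 1 array (grey bars). Pparg stays above 0.34 in all of these, and centring moves every gene down by the same 0.29.

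Across the 6 arrays, Pparg, Cebpa, Rxra and Ebf1 varied together with each other and with Srebf1 and Cebpb, which did not pass the test, with r between 0.76 and 0.98. Pearson's r of log2 intensity was 0.98 between Pparg and Cebpa, 0.97 between Pparg and Srebf1, 0.95 between Rxra and Srebf1 and 0.97 between Cebpb and Ebf1. Cebpd followed the others weakly, with r between −0.15 and 0.43. Mlxipl had a negative r with 7 of the other 8 genes, down to −0.72 with Cebpb. These values describe 6 arrays of which 3 are from each genotype, so they hold the difference between the groups as well as the spread within them. The named genes most like each member over the 6 arrays were Abhd16a and Acad9 for Pparg (r = 0.997 for both), Tyw1 and Adamts9 for Cebpa (0.999 and 0.998), Bcl2l2 and Jdp2 for Cebpb (0.997 for both) and Flacc1 and Cd9 for Cebpd (0.983 and 0.972). For Rxra they were Fam20a and Psmc5 (1.00 and 0.999), for Nr1h3 Phlpp1 and Ddt (0.991 and 0.990), for Srebf1 Rgcc and Aqp7 (0.998 and 0.997), for Ebf1 Hdac5 and Acad12 (0.999 and 0.995) and for Mlxipl Gtpbp2 and Araf (both 0.988). Each is the highest of 11469 named genes, so a high r is built into the choice.

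The relatives of the 9 genes in the same families were then examined. Of 14 listed, 12 were on the array and 11 were measured above background. Of these 11, 1 was called higher and 0 lower, beside 5.11% and 8.26% of all features. Cebpg, a C/EBP that lacks an activation domain, was the single one called, at 1772 ± 126 in wild type and 2229.9 ± 75.2 in transgenic tissue (SD, n = 3; log2 0.33, SE 0.09, limma adjusted p = 0.0417), and it kept the call in 1 of the 6 fits without an array, the one without wild type array 3. The fatty acid receptor Ppara read 255 ± 10.1 and 214 ± 20.7 (log2 −0.25, limma adjusted p = 0.111), and Ppard, the widely expressed PPAR, read 624 ± 18.7 and 535 ± 30.2 (log2 −0.22, limma adjusted p = 0.108). Both had all transgenic values below all wild type values, opposite in sign to Pparg, but neither passed the test. Of the 11 relatives, 4 separated in that direction and 3 in the other, where 17.4% and 18.5% of all features did. Srebf2, the factor for cholesterol synthesis genes, had a log2 difference of −0.34 (limma adjusted p = 0.0610), and Mlxip, the ChREBP relative MondoA, −0.22 (limma adjusted p = 0.133). Ebf3 was at 0.31 (limma adjusted p = 0.0696), Ebf2, known from brown fat precursors, at 0.14, the RXR genes Rxrg and Rxrb at 0.23 and 0.06, Ddit3 at 0.18 and Mlx, the partner of ChREBP, at 0.17, none of them called. Cebpe was at background, with values of 38.8 to 57.1.

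Among 21 measured coregulators of 26 listed, 0 were called higher and 1 lower, with a median log2 difference of −0.06. The one was Tle3, a corepressor family member that acts with PPARγ in fat cells, at 132 ± 1.46 and 105 ± 9.73 (log2 −0.34, limma adjusted p = 0.0457), a call lost in all 6 fits without an array. Of 38 measured other regulators of fat cell formation, 4 (10.5%) were called higher and 4 (10.5%) lower, with a median of 0.06, beside 5.11% and 8.26% of all features. Gata3, a zinc finger factor that holds preadipocytes back and is also a T cell factor, fell from 83.8 ± 9.35 to 57.1 ± 2.80 (log2 −0.55, limma adjusted p = 0.0177), but its transgenic values of 55.0, 60.2 and 55.9 lay at the background threshold of 55.6, so the size of this fall is not well measured. Klf2, an inhibitor of Pparg expression in cultured mouse cells that lymphocytes and endothelium also express, fell from 1499.8 ± 199.6 to 924 ± 124 (log2 −0.70, limma adjusted p = 0.0183). Egr2, an early inducer of differentiation and also a T cell factor, fell from 155 ± 18.5 to 96.7 ± 13.2 (log2 −0.69, limma adjusted p = 0.0183). Hes1, a target of Notch signalling, rose from 197 ± 54.8 to 357 ± 27.4 (log2 0.89, limma adjusted p = 0.0196). The 3 genes that fell did so beside the lymphocyte markers given above, and the part of lymphocytes in them was not tested. Without wild type array 2 or transgenic array 2, 0 of these regulators were called, and without transgenic array 1 there was 1 higher and 0 lower.

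Most of the measured known target genes had a positive difference, in 21 of 26 PPARγ, 8 of 10 LXR and 13 of 18 lipogenic targets. Over all features 8230 of 14962 did. Targets of the C/EBPs and of EBF1 were not listed. Genes called lower were among the PPARγ and lipogenic targets. Of 26 measured PPARγ targets, 6 (23.1%) were higher and 2 (7.69%) lower, with a median log2 difference of 0.20, where 5.11% and 8.26% of all features were called. These 26 include all 14 measured mature fat cell markers, and with them 5 of the 6 genes called higher. Ucp1, the uncoupling protein of brown fat, fell from 6499.7 ± 547 to 2698 ± 449 (log2 −1.28, SE 0.13, limma adjusted p = 0.0145), and 4 of 9 measured brown fat cell markers, a list that holds Ucp1, were lower. Slc2a4, the insulin-regulated glucose transporter, rose from 1058 ± 137 to 1538 ± 118 (log2 0.55, limma adjusted p = 0.0218), and Aqp7, the glycerol channel of fat cells, from 2046 ± 393 to 3044 ± 93.5 (log2 0.59, limma adjusted p = 0.0298). Fabp5, a fatty acid binding protein, rose from 162 ± 25.2 to 240.5 ± 31.2 (log2 0.57, limma adjusted p = 0.0343). The adipokine gene Adipoq read 12856 ± 1304 and 15609 ± 762 without overlap (log2 0.28, limma adjusted p = 0.0907). Lpl, the lipoprotein lipase, was at 0.02 (limma adjusted p = 0.900), with intensities near the top value of the arrays, 25166.1. Fabp4, a defining gene of fat cells, read 62.4 ± 3.32 and 67.5 ± 7.90 on its measured probe, close to background, although the gene is known to be abundant in fat.

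Of 10 measured LXR targets, 4 (40%) were higher and 0 lower, with a median of 0.41, and Nr1h3 itself was not called. Apoe, the lipid carrier apolipoprotein, rose from 4849 ± 1069.5 to 7673 ± 542 (log2 0.68, limma adjusted p = 0.0241), Pltp, the phospholipid transfer protein, from 250.5 ± 30.2 to 353 ± 35.9 (log2 0.50, limma adjusted p = 0.0317) and Abcg4, a sterol transporter, from 82.0 ± 7.09 to 117 ± 22.1 (log2 0.49, limma adjusted p = 0.0483). The fourth, Slc2a4, is also on the PPARγ list, and Abca1 was at background, at 45.9 to 48.7. Of 18 measured lipogenic targets of SREBP-1 and ChREBP, 2 (11.1%) were higher and 1 (5.56%) lower, with a median of 0.17, again beside 5.11% and 8.26%. Pnpla3, a lipase relative under control of both factors, rose from 4876 ± 628 to 7185 ± 779.8 (log2 0.56, limma adjusted p = 0.0244), and Fads1, a fatty acid desaturase, from 3057 ± 536 to 4808 ± 648 (log2 0.66, limma adjusted p = 0.0275). Elovl6, the elongase of palmitate, fell from 3394 ± 481 to 2228 ± 376 (log2 −0.61, limma adjusted p = 0.0329). Fasn, the fatty acid synthase, read 369.9 ± 28.7 and 438 ± 21.2 (log2 0.25, limma adjusted p = 0.108), and Scd1, a desaturase near the top of the intensity range, was at 0.00 (limma adjusted p = 0.989). Without wild type array 2, or without transgenic array 1 or 2, 0 of the PPARγ, LXR and lipogenic targets were called higher, but 43, 91 and 0 of all 14962 features were called higher in these fits. Without transgenic array 3 there were 0, 1 and 2. When each array was centred on mature fat cell markers, all of which are on the PPARγ list, 0 targets were higher in the 3 lists, and 5, 1 and 3 were lower. On that scale 0.695% of all features were higher and 30.9% lower, so these counts show nothing about the targets.

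**Figure D5:**
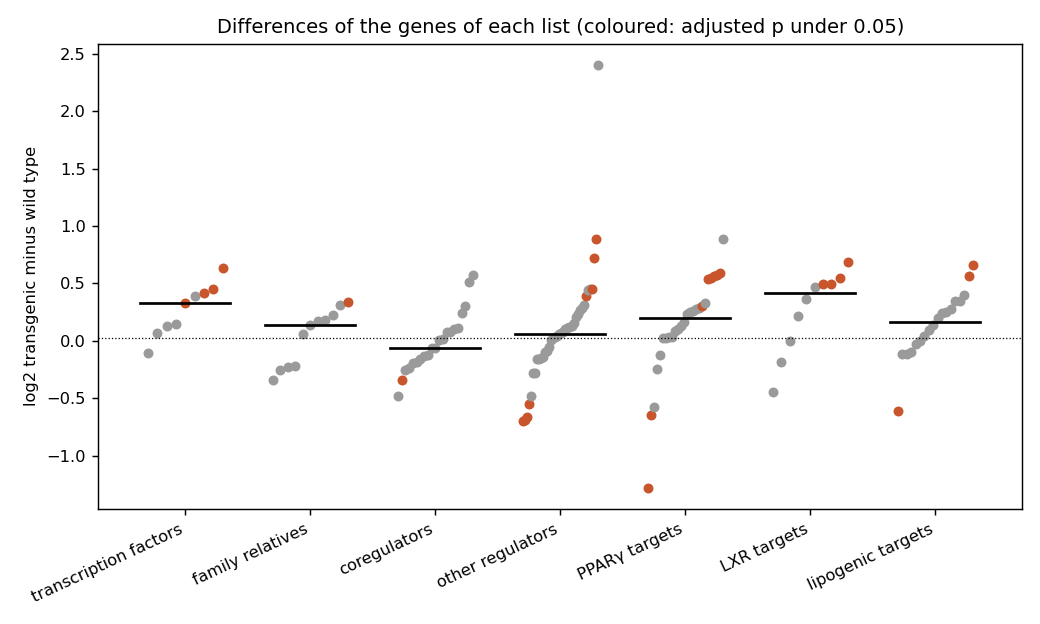
Log2 difference, transgenic minus wild type, of each measured gene in 7 lists; each point is a gene, orange points passed the adjusted p threshold, thick lines are list medians and the dotted line is the median of all features, 0.026. The median was 0.33 for the 9 transcription factors and 0.41 for the LXR targets, and −0.06 for the coregulators.

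The array probe for Cisd1, the gene of the transgene, read 915 ± 132 in wild type and 1086 ± 23.4 in transgenic tissue (log2 0.26, SE 0.11, limma adjusted p = 0.163). The groups did not overlap, but whether this probe reads the transgene's transcript is not known here, so it is a weak check of the labels. Arrays of the same group correlated at 0.988 to 0.995 over the kept probes.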

How the data were processed

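Total RNA of subcutaneous fat was labelled with biotin and hybridised to single-channel arrays, per the labels' protocols. The authors deposited 1 intensity per probe and array, on a linear scale, and the normalization software is not stated in the sources used here. Once sorted, the arrays' values were within 0.157 of each other, as after quantile normalization, and the lowest value was 32.4, so no background had been subtracted. A further table held 24 per-array columns whose names match no sample label, and these were not used.

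Probes were kept above an intensity of 55.6 on at least 3 of 6 arrays. This threshold is the most frequent log2 value, an intensity of 47.8, plus 1.645 times the spread of the log2 values under that mode. It kept 22037 of 45281 probes (48.7%). The annotation, which can be old, names a single gene for 34885 probes; 18 have several and 10378 have none; Entrez identifiers of 34807 matched a gene table of GRCm38.p6, and 0 symbols changed. A gene was read by its kept probe of highest mean. The 14962 features (11469 named genes) entered a fit by limma 3.58.1 (R 4.3.3), with no covariate and a Benjamini-Hochberg threshold of 0.05; the fit was tested on simulated data. Precision is limited by the number of arrays.

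The 9 genes, the lists and the markers were chosen with earlier results of these data known. Besides the 9 genes, the text names Cisd1, measured family relatives, the 4 called genes of smallest p in each other list, the genes Fabp4, Adipoq, Lpl, Fasn, Scd1 and Abca1, and the 2 genes most correlated with each of the 9. Alternatives covered the offset, background level, filter, probe choice, moderation, array weights, centring, a replicate block, a covariate and arrays left out.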

Additional observations from a re-analysis of the deposited data

How the results depend on the processing

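The count of 4 genes called higher was 4 or 5 under an added offset of 16, no filter, a filter on all 6 arrays, the mean of probes, separate probes, array weights, centring on the median, the replicate block and a narrower density for the threshold, the last chosen after seeing the data. It was 2 with an intensity trend, 1 after centring on mature fat cell markers, and 0 with the background level subtracted, with the lymphocyte covariate and without wild type array 2 and transgenic array 1; leaving out 1 array gave 0 to 4. No gene of the 9 was called lower in any of the 20 alternatives. The median log2 difference of the 9 genes was 0.23 with the mean of probes, 0.034 after centring on fat cell markers, 0.20 with the covariate and 0.27 to 0.39 without 1 array. Signs turned for Cebpb (−0.14), Cebpd (−0.22) and Nr1h3 (−0.17) after centring on fat cell markers, for Nr1h3 (−0.017) without both arrays, and for Nr1h3 (−0.20) and Mlxipl (0.21) with the covariate, none of them called. Pparg was called in 16 of 20 alternatives, Cebpa in 11, Rxra in 9, Srebf1 and Ebf1 in 8 each, and the other 4 genes in 0. A count of 4 was not always the same 4 genes. With array weights, Rxra was lost (limma adjusted p = 0.0515) and Srebf1 gained (limma adjusted p = 0.0332). With the mean of probes, Ebf1 was lost (limma adjusted p = 0.264) and Srebf1 gained (limma adjusted p = 0.0467). Of the 24 called list genes, Ucp1 was called in 17 of 20 alternatives, Hes1 in 15, Tle3 in 7 and the other 21 in 9 to 14; with the covariate Abcg4 turned to −0.072 and Fabp5 to −0.013, neither called, and no other of the 24 changed sign.

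Over all features, 765 higher and 1236 lower became 26 and 19 with the background level subtracted (4187 had an unadjusted p under 0.05), 104 and 4621 after centring on fat cell markers, 21 and 296 without both arrays and 0 and 0 with the covariate. Separate probes gave 1259 higher and array weights 1247. Centring on the median gave 50.7% of calls as rises, against 38.2%. Leaving out 1 array gave 0 to 996 higher and 0 to 1307 lower. Deviations of same-numbered arrays correlated at 0.41, 0.22 and −0.03, and those of differently numbered arrays at −0.35 to 0.23. With 3 arrays a group, these values cannot decide whether the replicate numbers pair the arrays. With the number as a block, 4 of the 9 genes and 2391 features were called, with Srebf1 gained and Ebf1 lost (limma adjusted p = 0.0579). The permutation test cannot reach the threshold with 3 against 3 arrays. The cause of these changes was not tested. The background level that remains in the intensities leaves the differences of dim genes understated. With it subtracted, the log2 difference was 0.54 for Rxra, 0.44 for Srebf1 and 0.09 for Cebpd, against 0.42, 0.39 and 0.07. Gata3, Egr2, Tle3 and Abcg4 were dimmer than these 3 genes, so their differences are understated as well.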

Other observations

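Dlk1, the preadipocyte factor that holds back differentiation and is on the list of other regulators, was singled out after its values were seen. It read 124, 143 and 1883 on the wild type arrays and 1588, 1914 and 1624 on the transgenic arrays. Wild type array 3 was thus as high as the transgenic arrays, while the other 2 wild type arrays were low. The log2 difference was 2.40 (SE 0.88) and limma's adjusted p was 0.103.

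Further called genes of the lists fall outside the naming rule and were also named after their values were seen. Among other regulators, Id2, a helix-loop-helix inhibitor, was lower (log2 −0.67, limma adjusted p = 0.0205), and Klf9, Id3 and Twist1 were higher, at 0.39, 0.72 and 0.45. Among PPARγ targets, the lipid droplet genes Cidec and Plin1 were higher, at 0.56 and 0.54, as was Dgat2, an enzyme of triglyceride synthesis, at 0.30. Pdk4, a kinase that inhibits pyruvate dehydrogenase, was lower, at −0.64 (limma adjusted p = 0.0403).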
